A study of Rattus norvegicus with 6 samples.

Results

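The transcripts of 5 genes of the kidney's nitric oxide, endothelin and prostaglandin systems were followed in 6 kidney RNA-seq libraries: Nos1, Nos3, Edn1, Ednrb and Ptgs2. They were chosen by their Ensembl rat identifiers, which are ENSRNOG00000001130 (Nos1), ENSRNOG00000009348 (Nos3), ENSRNOG00000014361 (Edn1), ENSRNOG00000010997 (Ednrb) and ENSRNOG00000002525 (Ptgs2). All 5 of the 5 identifiers were present among 28787 gene models, and all 5 were among the 16324 models that passed the filter on low counts. The deposited tables give identifiers without gene names, so the names of these 5 came with the choice of the set and were not checked against a name table. The study compared male rats of the Dahl Salt Sensitive strain (called Dahl SS), inbred animals that become hypertensive when fed salt, with male Resp18 mutant rats, 3 libraries in each group. Resp18 encodes regulated endocrine-specific protein 18, and the labels name neither the allele nor the background strain of the mutant. Both groups were moved to a diet with 2% salt at 6 weeks of age and were killed after 1 week on it, at 7 weeks, so the effect of salt itself is not part of this comparison. The series title speaks of the renin-angiotensin system, which these 5 genes are not part of.

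Nitric oxide synthases make nitric oxide, a gas that relaxes vessels and lowers tubular sodium reabsorption. Nos1 encodes the neuronal enzyme, found in the kidney mainly in the macula densa, and Nos3 encodes the endothelial enzyme. Endothelin-1, the product of Edn1, is a peptide that constricts vessels through one receptor, while the receptor encoded by Ednrb, on endothelium and collecting duct, mediates nitric oxide release, sodium loss and clearance of the peptide. Ptgs2 encodes cyclooxygenase-2, the inducible enzyme of prostanoid synthesis, which in the rat kidney sits in the macula densa and nearby thick ascending limb and in medullary interstitial cells, and takes part in the control of renin release.

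Total counts ranged from 13427302 to 22854561 per library. Whether each library is a separate animal is not said in the labels. The p-values therefore set group differences against the variation between libraries, which may not be that between animals. The Resp18 transcript, other genes of the 3 pathways and kidney cell type markers were not analysed here, because no table used here pairs identifiers with names. In whole kidney, fewer cells of a type and less RNA per cell cannot be told apart. Libraries differed in how their counts went with model length: across models, the Spearman correlation with length of the log2 CPM deviation reached 0.37 in Dahl SS replicate 1 and -0.37 in mutant replicate 1, and between -0.17 and 0.04 in the other 4. The fold changes were also computed without this pair and with the trend removed.

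The genes were compared in level by FPKM, the read count scaled by model length and by library total, which allows genes of different length to be set side by side. Ednrb was the most abundant of the 5. In Dahl SS kidneys it stood at 37.4, 27.8 and 30.9 FPKM in replicates 1 to 3, and in mutant kidneys at 31.9, 36.7 and 40.7. Its mean over the 6 libraries was 34.2 ± 4.80 FPKM (SD, n = 6), which placed it in the top 17.0% of tested models by mean FPKM. Its transcript was 5.84 times as abundant per length as that of Nos3, the second in order, and it was above Nos3 in 6 of 6 libraries.

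Nos3, the endothelial synthase, was at 6.86, 4.83 and 6.02 FPKM in Dahl SS kidneys and at 5.59, 5.22 and 6.61 in mutant kidneys. Its mean was 5.86 ± 0.792 FPKM (SD, n = 6), 2.95 times that of the next gene, and its lowest library was above the highest library of Ptgs2. Ptgs2 and Nos1 could not be ordered. Ptgs2 had 2.13, 1.50 and 1.84 FPKM in Dahl SS and 2.19, 2.03 and 2.23 in mutant kidneys. Nos1 had 2.16, 1.87 and 2.09 FPKM in Dahl SS and 1.61, 1.92 and 2.19 in mutant kidneys. Their means over 6 libraries were 1.99 ± 0.277 and 1.97 ± 0.220 FPKM (SD, n = 6), and Ptgs2 was the higher of the pair in 3 of 6 libraries, all of them mutant.

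Edn1, the peptide precursor, was the least abundant, at 1.10, 1.64 and 1.11 FPKM in Dahl SS kidneys and 1.18, 1.48 and 1.18 in mutant kidneys. Its mean was 1.28 ± 0.225 FPKM (SD, n = 6). It lay below Nos1 within each of the 6 libraries, although the range of Edn1 over libraries, up to 1.64, touched that of Nos1, which began at 1.61. The receptor transcript thus exceeded that of its ligand in every library, with Ednrb/Edn1 ratios of 34.0, 17.0 and 27.9 in Dahl SS and 27.0, 24.7 and 34.5 in mutant kidneys.

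**Figure D1:**
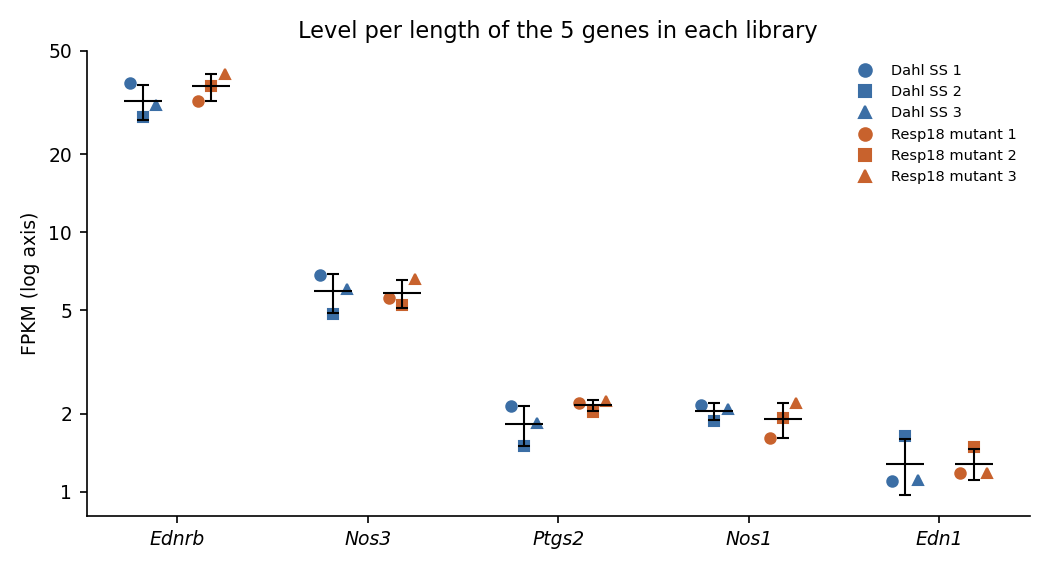
Level per length (FPKM, log axis) of the 5 genes in each of the 6 libraries. Symbols mark replicates 1 to 3, and bars give the mean and SD of each group (n = 3). Ednrb lies between 27.8 and 40.7 FPKM, Nos3 between 4.83 and 6.86, and Ptgs2, Nos1 and Edn1 between 1.10 and 2.23, with the 2 groups overlapping in each gene.

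The annotated start regions of Nos1 and Ptgs2 are shown because these genes are the pair whose levels could not be ordered over the 6 libraries. The 250 bases before the start come from RefSeq on build GRCr8, which is not the build named for the tables, and 5 of 5 genes matched by symbol. Capitals mark matches, on either strand, to 5 motifs searched in these letters: TATAAA (core promoter box), TGACGTCA (cAMP response element), CACGTG (E-box), TGACTNA (AP-1 element) and GGGCGG (GC box). The Nos1 window, chr12:44371838-44372087 on the minus strand, starts inside the annotated gene, which has several starts. The Ptgs2 window is chr13:64713813-64714062 on the plus strand.
Nos1: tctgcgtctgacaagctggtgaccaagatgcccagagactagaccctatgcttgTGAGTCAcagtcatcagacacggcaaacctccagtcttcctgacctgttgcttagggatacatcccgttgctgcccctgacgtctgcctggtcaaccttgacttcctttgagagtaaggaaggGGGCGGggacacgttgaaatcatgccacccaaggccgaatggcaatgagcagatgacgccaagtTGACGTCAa
Ptgs2: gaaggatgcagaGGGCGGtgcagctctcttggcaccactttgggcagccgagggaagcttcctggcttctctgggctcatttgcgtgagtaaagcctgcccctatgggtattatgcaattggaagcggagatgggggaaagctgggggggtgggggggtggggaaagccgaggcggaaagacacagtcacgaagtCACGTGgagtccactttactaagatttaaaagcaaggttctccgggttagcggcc
The Nos1 window held the cAMP response element, an AP-1 element and a GC box, beginning 9, 196 and 73 bases before the start. The Ptgs2 window held an E-box 55 bases and a GC box 238 bases before the start. Of the other 3 genes, Edn1 had the letters TATAAA 110 bases and an AP-1 element 186 bases before the start. These distances rest on the annotated start, and whether that TATAAA acts as a core promoter box was not tested. Nos3 had a GC box 106 bases before the start, and no match lay in the Ednrb window. Over the 33469 windows of this length, the cAMP response element occurred in 1.59%, the E-box in 5.59%, the AP-1 element in 11.5%, the core promoter box in 12.9% and the GC box in 30.5%. These matches describe letters only, and the RNA counts bear on no site.

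Setting mutant beside Dahl SS kidneys asks whether these vasoactive genes differ between both groups on the salt diet. None of the 5 passed edgeR's quasi-likelihood test at an adjusted p of 0.05, with Benjamini-Hochberg adjustment over all tested models, and 0 of 5 had an unadjusted edgeR p under 0.05. DESeq2 called 0 of 5. By edgeR, 0.0123% of all tested models passed the adjusted threshold (2 models), 10.8% had an unadjusted p under 0.05, and DESeq2 called 0.649%. The count of 2 models became 13 when Dahl SS replicate 1 was left out, 1 when its replicate 2 was, and 6 when mutant replicate 3 was. In 0 of 5 genes were the CPM values (reads scaled to a fixed library total after TMM) of the groups free of overlap, against 17.2% of all tested models. The median log2 fold change of the 5 was 0.028, and that of all tested models was 0.0051. The 95% intervals of all 5 genes stayed within 2-fold up or down, as did those of 83.8% of all tested models.

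Of the nitric oxide synthases, Nos1 had 218, 120 and 150 reads in Dahl SS kidneys, while the mutant kidneys had 156, 177 and 130. On the CPM scale these were 9.35, 8.37 and 9.19 against 7.34, 8.49 and 9.50. Mutant libraries held both the lowest value (replicate 1) and the highest (replicate 3). The group means were 8.97 ± 0.526 and 8.44 ± 1.08 CPM (SD, n = 3), and mutants were at 0.936 times the Dahl SS level (95% interval 0.746 to 1.18; edgeR adjusted p = 0.81). The sign of this small difference turned without mutant replicate 1, where the log2 fold change was 0.0053 against -0.095 over all libraries.

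Nos3 had 620, 277 and 387 reads in Dahl SS and 485, 430 and 351 in mutant kidneys, or 26.6, 19.3 and 23.7 CPM against 22.8, 20.6 and 25.6 CPM. The spread within Dahl SS kidneys enclosed all 3 mutant values. The fold change was 0.987 (95% interval 0.794 to 1.23; edgeR adjusted p = 0.969). The sign of the Nos3 difference turned with the library left out, from -0.13 (log2) without Dahl SS replicate 2 to 0.092 without Dahl SS replicate 1.

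In the endothelin pair, the ligand was measured with the least precision. Edn1 had 35, 33 and 25 reads in Dahl SS and 36, 43 and 22 in mutant kidneys, which gave 1.50, 2.30 and 1.53 CPM against 1.69, 2.06 and 1.61 CPM. Replicate 2 was the high library in each group. The fold change was 1.02 with a 95% interval of 0.660 to 1.58 (edgeR adjusted p = 0.977). The mean counting error of a single library, 17.9% of its value, was of the size of the spread between libraries, which was 25.5% in Dahl SS and 13.5% in mutant kidneys. The interval rests on both, and no setting varied the depth.

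Ednrb, the endothelin B receptor, had 1705, 805 and 1000 reads in Dahl SS and 1396, 1524 and 1089 in mutant kidneys. The CPM values were 73.2, 56.2 and 61.3 in Dahl SS and 65.7, 73.1 and 79.6 in mutant kidneys. All 3 mutant values lay above those of Dahl SS replicates 2 and 3, while Dahl SS replicate 1 lay among the mutants. Mutants were at 1.14 times the Dahl SS level, with a 95% interval of 0.951 to 1.37 and an edgeR adjusted p of 0.542 (log2 scale 0.19 ± 0.12 SE). Counting error was 2.90% per library for this gene, against a spread of 13.7% and 9.56% within the groups, so counting error was the smaller part of that spread.

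The Ednrb difference moved with the 2 libraries of strongest length correlation. For Ednrb, Dahl SS replicate 1 (73.2 CPM) was the highest Dahl SS library and mutant replicate 1 (65.7 CPM) the lowest mutant library. Leaving them out therefore had to widen the difference, and the p-value of that setting is no support for it. The length trend taken out of Ednrb in them was -0.018 and 0.028 (log2). Without both of them the log2 fold change was 0.38 ± 0.088 SE, with an unadjusted edgeR p of 0.0019 and an adjusted p of 0.229, and it was 0.31 without Dahl SS replicate 1 alone. It was 0.12 without Dahl SS replicate 2 and 0.18 with the length trend removed. The adjusted p of Ednrb ranged from 0.229 to 0.897 over its 20 alternatives, and the difference was positive in 20 of 20. That pair was already known from earlier results to have the extreme length correlations when this setting was chosen.

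Ptgs2, the cyclooxygenase, did not pass the test either, and its fold change was the largest of the 5 over all libraries with edgeR, though not in every alternative. It had 137, 61 and 84 reads in Dahl SS and 135, 119 and 84 in mutant kidneys, or 5.88, 4.26 and 5.15 CPM against 6.35, 5.71 and 6.14 CPM. The groups overlapped, with Dahl SS replicate 1 above the lowest mutant library. The spread was 5.39% in mutant and 15.9% in Dahl SS kidneys against a mean counting error of 10.2% per library, so the mutant libraries lay closer together than that error. Group means were 5.09 ± 0.812 and 6.06 ± 0.327 CPM (SD, n = 3), a 1.18-fold difference with a 95% interval of 0.897 to 1.56 and an edgeR adjusted p of 0.6 (log2 scale 0.24 ± 0.18 SE). With each library's length trend taken out, the mutant values of 6.60, 5.81 and 6.21 all stood above the Dahl SS values of 5.80, 4.40 and 5.24 on the CPM scale. The margin was that between 5.81 and 5.80, and 18.4% of all tested models separated in this way with the trend removed (9.21% with mutants higher). The adjusted p of Ptgs2 was 0.534 in that fit, and its log2 fold change was 0.14 without Dahl SS replicate 2.

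**Figure D2:**
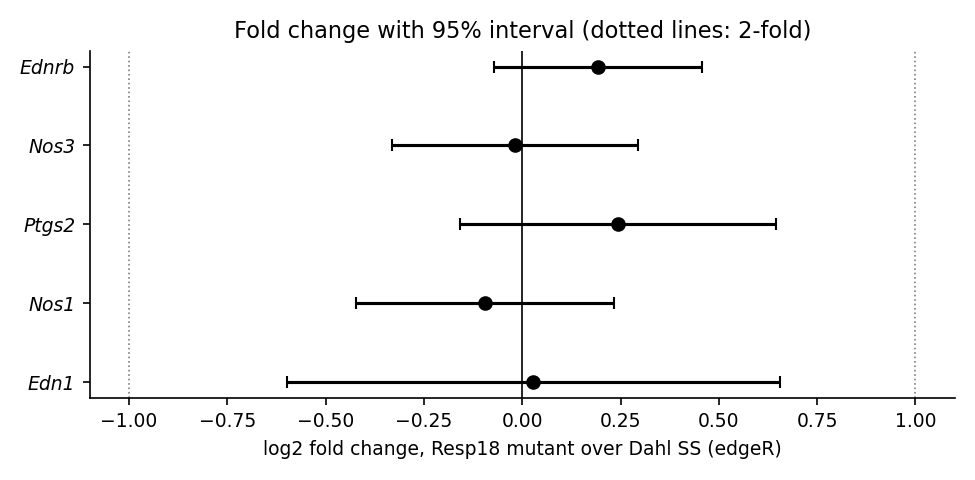
Log2 fold change of the 5 genes, Resp18 mutant over Dahl SS, from edgeR with 95% intervals (3 libraries per group). Dotted lines mark a 2-fold change, and each interval includes 0 and stays inside those lines, with the widest for Edn1.

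Model length is given beside these values because fold changes in this comparison went with it. The lengths implied by the tables were 4421 bases for Nos1, 3953 for Nos3, 2811 for Ptgs2, 1994 for Ednrb and 1390 for Edn1. The median log2 fold change of all tested models was -0.055 for those of 3000 to 5000 bases, which holds both synthases, -0.011 for 2000 to 3000 bases and 0.044 for 1000 to 2000 bases. With the trend removed, the log2 fold change was -0.035 for Nos1, 0.038 for Nos3, -0.020 for Edn1, 0.18 for Ednrb and 0.27 for Ptgs2. The Nos3 and Edn1 differences turned sign in that fit, and Nos1 moved closer to 0. Leaving out the pair with the extreme length correlations gave 0.030 for Nos1, 0.096 for Nos3, -0.042 for Edn1, 0.38 for Ednrb and 0.33 for Ptgs2.

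Dahl SS replicate 2 was at an end of the range in 4 of the 5 genes. It held the lowest CPM of the 6 libraries for Nos3, Ednrb and Ptgs2 and the highest for Edn1, at deviations from the gene's mean of -0.25, -0.27, -0.37 and 0.37 (log2 CPM). Over all tested models, 13.9% were lowest and 14.7% highest in this library. Nos1 was also lowest there among the Dahl SS libraries, by a small margin (-0.050), but its lowest value was in mutant replicate 1 (-0.24). This library was singled out after the values were seen. Without it the log2 fold changes were 0.14 for Ptgs2, 0.12 for Ednrb, 0.25 for Edn1, -0.13 for Nos3 and -0.13 for Nos1.

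**Figure D3:**
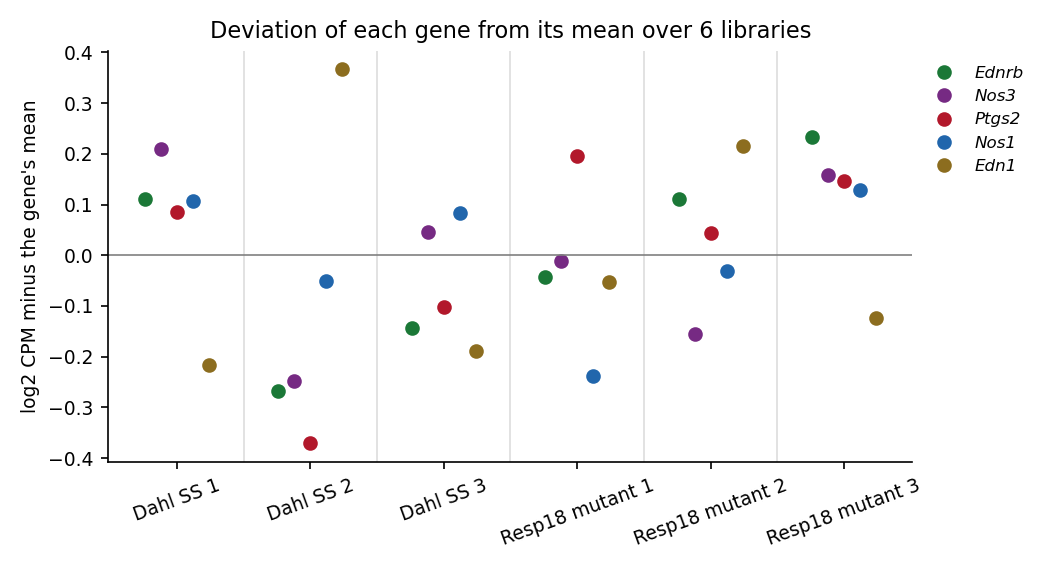
Deviation of each gene from its own mean over the 6 libraries, in log2 CPM, by library. In Dahl SS 2, Ptgs2, Ednrb and Nos3 lie at -0.37, -0.27 and -0.25 while Edn1 lies at 0.37.

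Ratios of 2 genes within a library do not depend on how libraries are scaled. All 10 ratios among the 5 genes were computed, a set chosen after the single values had been seen, and the ratios share genes. The groups did not overlap in 3 of 10. The share over all pairs of tested models was not computed, so this count has no background beside it. Nos3/Ptgs2, the endothelial synthase over the cyclooxygenase, was 3.22, 3.23 and 3.28 in Dahl SS kidneys and 2.55, 2.57 and 2.97 in mutant kidneys. Its means were 3.24 ± 0.0308 and 2.70 ± 0.236 (SD, n = 3; two-sided exact permutation p = 0.1, adjusted over 10 ratios 0.333). The 3 Dahl SS ratios lay closer together than counting error would place them, since that error was 8.54% to 12.8% for Ptgs2 and 4.02% to 6.01% for Nos3 in these libraries. Nothing is read from that closeness. Of all other tested models set over Ptgs2 in the same way, 29.1% were lower in all mutant libraries, so this separation was common with Ptgs2 as the divisor. Set over Nos3, 3.64% of models were higher in all mutant libraries, as Ptgs2 was. The share thus depends on which gene is held fixed, and neither value is the share over all pairs. How common such a separation is among pairs was not tested.

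Ptgs2/Nos1 is the ratio of the pair whose start regions are shown with the levels. It was 0.988, 0.799 and 0.881 in Dahl SS and 1.36, 1.06 and 1.02 in mutant kidneys. Dahl SS kidneys averaged 0.890 ± 0.0948, and mutant kidneys 1.14 ± 0.188 (SD, n = 3; two-sided exact permutation p = 0.1, adjusted 0.333). On FPKM, each mutant library thus had more Ptgs2 than Nos1 per length and each Dahl SS library had less. The closest were Dahl SS replicate 1 at 0.988 and mutant replicate 3 at 1.02. Their counting errors were 8.54% and 10.9% for Ptgs2 and 6.77% and 8.77% for Nos1, so neither can be told from equal levels. With the length trend removed, Dahl SS replicate 1 was at 1.05 and no longer had less. Ednrb/Nos1 was 17.3, 14.9 and 14.8 in Dahl SS and 19.8, 19.1 and 18.6 in mutant kidneys (exact permutation p = 0.1, adjusted 0.333). Of all other tested models set over Nos1, 8.52% were higher in all mutant libraries. Seen from the other gene of each pair, Nos1 is among the 29.1% of models lower over Ptgs2 and among the 24.5% lower over Ednrb, so these separations were also common by that count.

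With 3 against 3 libraries, 0.1 is the smallest p this test can give, so none of the ratios could pass 0.05. Groups that do not overlap always give 0.1, so for these 3 ratios the p only restates the separation. With the length trend removed, only Nos3/Ptgs2 of the 10 kept the groups apart, at 3.05, 3.22 and 3.21 against 2.63, 2.51 and 2.93. Its exact permutation p adjusted over the 10 ratios was 0.667 on that scale. Ptgs2/Nos1 then overlapped because Dahl SS replicate 1, at 1.05, stood above mutant replicate 3, at 1.02. Ednrb/Nos1 overlapped because Dahl SS replicate 1 was at 19.0. The count of separated ratios was 5 without Dahl SS replicate 2 and 3 or 4 without any other single library. Leaving out a library cannot make separated groups overlap, so this count could only stay or rise.

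**Figure D4:**
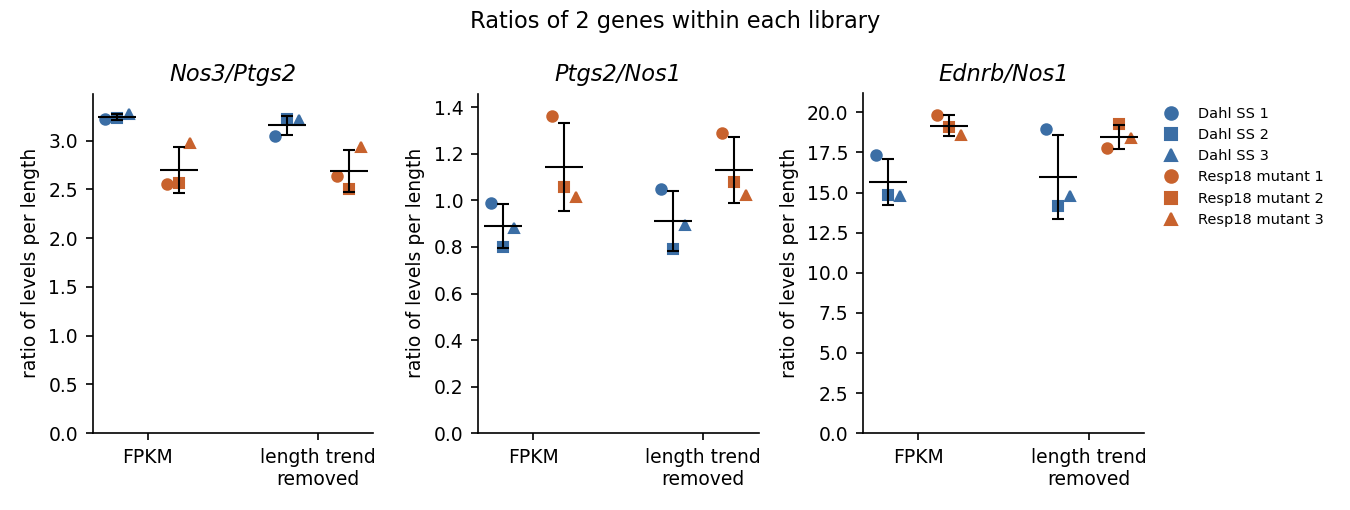
Ratios of levels per length of 2 genes within each library, from FPKM and with the length trend removed, with mean and SD of each group (n = 3). On FPKM the groups are apart in the 3 ratios shown, which were picked for that, and with the trend removed they are apart in Nos3/Ptgs2 only.

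The models whose pattern over the 6 libraries was most like each gene were picked by the smallest root mean square difference of centred log2 CPM, among 9953 models of at least 10 CPM. They can be given by identifier only. They were ENSRNOG00000010451 for Nos1 (0.027), ENSRNOG00000009759 for Nos3 (0.035), ENSRNOG00000010213 for Ednrb (0.026), ENSRNOG00000012698 for Ptgs2 (0.054) and ENSRNOG00000023129 for Edn1 (0.074), with the difference in log2 units in brackets. Their group differences follow from this choice and are not given. Within the set, Ednrb and Ptgs2 were each other's closest gene (0.12), as were Nos1 and Nos3 (0.14), while Edn1 was 0.29 from its closest, Nos1. The median distance to the 9953 models was 0.17 for Nos1, 0.20 for Nos3, 0.22 for Ednrb, 0.24 for Ptgs2 and 0.26 for Edn1. Edn1 was thus farther from its closest gene of the set than from a typical one of these models. Nos1 and Nos3 were only a little nearer each other than typical. Those models had at least 10 CPM, while Edn1, Ptgs2 and Nos1 lay below that level. Edn1 had a mean counting error of 17.9% per library, so its distances hold counting noise. The genes' own spread around their means, on the same scale, was 0.13 for Nos1, 0.16 for Nos3, 0.17 for Ednrb, 0.19 for Ptgs2 and 0.22 for Edn1. The distance between Nos1 and Nos3 was thus above the spread of Nos1 itself, and that between Ednrb and Ptgs2 was below the spread of either.

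Across tests, scalings, filters, units and left-out libraries, no gene of the 5 was called in any of its 20 alternatives. Ptgs2 and Ednrb were higher in mutants in 20 of 20 each, with log2 fold changes from 0.14 to 0.36 and from 0.12 to 0.38. Nos1 was lower in 18 of 20, from -0.18 to 0.030. Nos3 was lower in 16 of 20, from -0.13 to 0.096, and Edn1 was higher in 15 of 20, from -0.087 to 0.25. The alternatives share libraries, so these counts are no separate evidence of a direction.

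**Figure D5:**
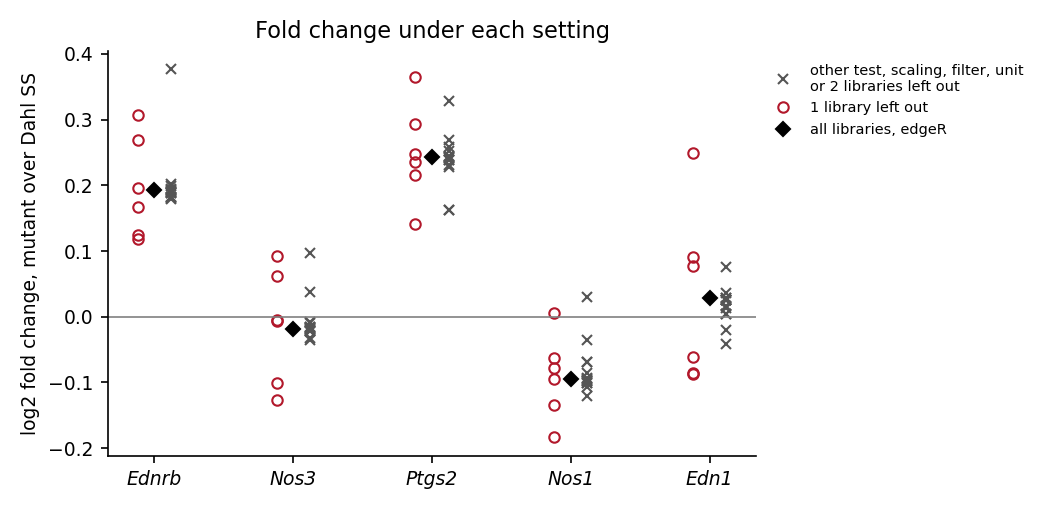
Log2 fold change, mutant over Dahl SS, for each gene over all libraries with edgeR (diamond), with 1 library left out (circles) and under the other settings (crosses). Ptgs2 and Ednrb stay above 0 throughout, while Nos3, Nos1 and Edn1 cross it.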

How the data were processed

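Kidney RNA was sequenced in 6 libraries made with a NEBNext Ultra kit, per the labels' protocols. The authors deposited raw read counts and FPKM values by gene model. Per the submitters' processing notes, the tools were HTSeq 0.6.1, HISAT2 2.1.0 and CASAVA 1.8, with no roles stated, and the genome was Rnor 5.0. How strand and multiply mapped reads were treated is not given. Deposited FPKM equalled counts scaled by library total and a whole-number length, which gave the lengths.

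Counts were fitted with edgeR 4.0.16 (R 4.3.3) on group alone after filterByExpr (minimum count 10, minimum total 15) and TMM scaling, over 16324 models, with an adjusted p threshold of 0.05. Intervals (95%) used the quasi-likelihood degrees of freedom. The fit was tested on counts simulated from its own dispersions, without the length trend of these libraries. The outcome is not reported here. Alternatives used DESeq2 1.42.0, limma 3.58.1, other scalings and filters, a replicate block, left-out libraries, and a loess length trend (span 0.5, prior count 2) removed by offsets. The 5 genes, lists and settings were chosen with earlier results of these data known. By rule the 5 genes were always named, and for each the 1 other model most like it; pathway and marker lists fixed by symbol could not be matched.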

Additional observations from a re-analysis of the deposited data

How the results depend on the processing

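The 5 fold changes stayed short of the threshold under all 20 alternatives each. The log2 fold change of Nos3 turned to 0.038 and that of Edn1 to -0.020 with the length trend removed. When Dahl SS replicate 1 and mutant replicate 1 were both left out, Nos1 was 0.030, Nos3 0.096 and Edn1 -0.042. The cause was not tested. Leaving out 1 library gave ranges of -0.18 to 0.0053 for Nos1, -0.13 to 0.092 for Nos3, -0.087 to 0.25 for Edn1, 0.12 to 0.31 for Ednrb and 0.14 to 0.36 for Ptgs2.

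The number of models past the threshold was 2 with edgeR, 106 with DESeq2, 1 with limma-voom, 1 in each of the 3 limma fits on log2 FPKM and 22 without the pair named above. Leaving out 1 library gave 1 to 13. The labels do not say whether equal numbers in the titles pair libraries. The deviations of equal numbers correlated at -0.27, -0.14 and -0.0018, and those of unequal numbers at -0.12 to 0.25. These deviations were centred within each small group and carry the length trends, so they cannot decide whether libraries are paired. With the replicate block the log2 fold changes were -0.097 for Nos1, -0.0079 for Nos3, 0.025 for Edn1, 0.20 for Ednrb and 0.26 for Ptgs2, and the number of models was 2.

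For the ratios, alternatives were chosen after seeing the data. The number without overlap was 3, 1 with the length trend removed, and 3 to 5 with 1 library left out. Leaving out a library could not lower it. The 3 ratios shown kept their direction with the trend removed. With a library left out they had to, since their groups do not overlap. Edn1 had the fewest reads, 22 to 43 per library, and the widest interval.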
